A study of Homo sapiens with 4 samples.

Results

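The promoters of 48 genes of nucleic acid sensing and of the interferon response were examined, out of 28775 promoters with ATAC-seq counts. They were chosen by gene symbol, with no threshold on their counts: 7 sensors of foreign or misplaced nucleic acid, 10 adaptors, kinases and transcription factors that carry the signal, 5 genes of interferon beta, its receptor and the receptor's kinases, 4 enzymes that edit or degrade nucleic acids, and 22 interferon-induced effectors. ATAC-seq marks open DNA by letting the Tn5 transposase cut it. The cells were HEK293T, an aneuploid human embryonic kidney line that carries the SV40 large T antigen. There were 2 libraries from wild-type (WT) cells and 2 from cells labelled MORC2 knock-out (KO). The KO libraries came from bulk pools, not clones, made by electroporation of Cas9 protein with a different guide RNA against MORC2 in each of the pools, so that guide and replicate cannot be told apart. The study measured the knock-out in both pools by western blot for MORC2. The share of edited alleles in each pool was not analysed here.

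Cells recognise RNA or DNA in the wrong form or place through dedicated receptors. RIG-I and MDA5 report double-stranded RNA through MAVS, TLR3 does so from endosomes, and cGAS reports cytosolic DNA through STING. The kinases TBK1 and IKKε then activate IRF3 and IRF7, which switch on interferon beta. Secreted interferon binds IFNAR1 and IFNAR2, and the kinases JAK1 and TYK2 activate STAT2, which with IRF9 binds interferon-stimulated response elements (ISREs) in the promoters of effector genes. The question for these promoters follows from MORC2 working with the HUSH complex, which silences transposable elements: RNA and DNA from derepressed repeats are known triggers of this pathway in other settings. HEK293T cells are known to have little cGAS and STING.

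The libraries held between 9435801 and 15152636 promoter counts, of which mitochondrial rows took 20.6% to 35.1%, and KO replicate 2 was the deepest library with the smallest mitochondrial share. The promoter of MORC2 itself held 37.0 and 37.5 CPM (counts per 1000000 counts of the library, after TMM scaling) in KO replicates 1 and 2, against 25.7 and 29.6 in WT replicates 1 and 2. The MORC2 promoter was called higher in KO (log2 fold change 0.43, SE 0.087, edgeR adjusted p 2.79e-04). Its row held nearly the same counts as TUG1, and promoter counts do not measure the edit, so this does not check the KO label. As a check on the cell type, the summed level of 7 promoters typical of this line (VIM, KRT8, KRT18, CDH2, EYA1, PAX2, NEFL) was 197 and 199 CPM in WT and 209 and 218 CPM in KO. VIM, CDH2 and NEFL were among the more open promoters, whereas KRT8, KRT18, PAX2 and EYA1 lay below the median promoter. The 5 blood cell markers (PTPRC, CD3E, CD14, SPI1, LYZ), whose cells make much of the interferon response in tissue, summed to 21.2 to 23.6 CPM in WT and 19.4 to 20.1 CPM in KO, with mean WT levels of 1.71 to 7.90 CPM each, and their part in the results was not tested. The fibroblast markers COL1A1 and DCN summed to 23.8 to 28.6 CPM and the hepatocyte markers ALB and APOA1 to 25.8 to 27.6 CPM over the 4 libraries. In WT, COL1A1 (23.6 CPM) and APOA1 (24.8 CPM) lay above the median promoter and were more open than KRT8, KRT18, PAX2 and EYA1. These lists alone therefore do not tell the cell types apart. None of the marker promoters named here was called between KO and WT.

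All 48 member promoters passed the filter on low counts, with 21 to 1207 fragments per library. In WT cells they spanned a wide range of accessibility, from 2.51 CPM at IFNB1 to 73.7 CPM at STAT2, and their median lay at the 44.8th percentile of nuclear promoters. By role, the receptor chains and their kinases had the highest median, with JAK1 at 67.7, IFNAR1 at 64.1, IFNAR2 at 42.7 and TYK2 at 41.1 CPM (mean of both WT libraries). Among the signalling genes STAT2, IRF3 (48.2 CPM), IRF1 (47.7 CPM), TBK1 (44.4 CPM) and MAVS (36.7 CPM) were similarly open, and IRF3 and IRF1 differed by less than the spread between the IRF3 libraries. IKBKE (13.8 CPM), IRF7 (11.5 CPM) and STING1 (9.54 CPM) lay below the median promoter. Levels were compared between genes as fragments per promoter, on the footing that all promoter windows have 1 width, as the study's methods define them.

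The 22 effector promoters were less open, from 3.01 CPM at IFITM3 to 20.2 CPM at IFIT5, and 19 of them lay below the median of nuclear promoters. The most open were IFIT5, which binds RNA ends, IFI6 (19.7 CPM), USP18 (18.7 CPM), the protease that removes ISG15, and RSAD2 (15.6 CPM), the antiviral enzyme viperin. The ISG15 promoter, of the ubiquitin-like modifier, held 11.9 CPM, that of IFIT1 12.99 CPM and that of the antiviral GTPase MX1 7.02 CPM. Among sensors the order was EIF2AK2 (PKR, 33.6 CPM), RIGI (RIG-I, 22.4 CPM), DHX58 (LGP2, 13.9 CPM), IFIH1 (MDA5, 6.74 CPM), TLR3 (6.52 CPM), ZBP1 (5.62 CPM) and CGAS (5.58 CPM). IFIH1 and TLR3, and ZBP1 and CGAS, did not differ beyond the spread between their WT libraries. IFNB1, with 26 and 21 fragments in WT replicates 1 and 2, was the least open of all 48.

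**Figure D1:**
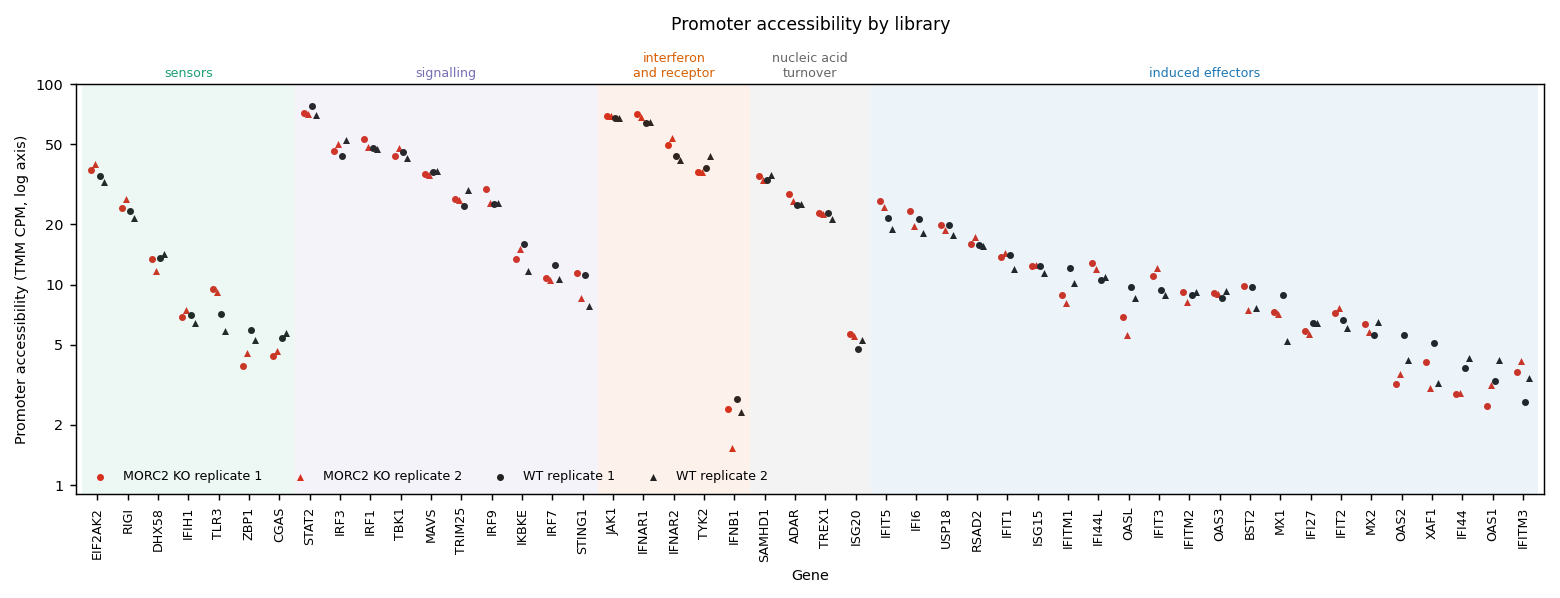
Promoter accessibility of the 48 genes in each library, in TMM-scaled CPM on a log axis, grouped by role and ordered by the WT mean within each role; circles are replicate 1 and triangles replicate 2, red MORC2 KO and black WT. Receptor and most signalling promoters sit above 20 CPM, most effectors below, and the colours overlap or lie close at most genes.

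RefSeq promoters on GRCh38.p14, from 250 bases before to 50 after a start site, were matched by gene ID for 35 of the 48 members, in 47 windows because some genes have several starts. The ISRE-type motif searched, on both strands, was GAAA followed by any 2 bases and a further GAAA. It was present in at least 1 window of 18 of the 35 genes (51.4%), against 4.38% of all 27305 genes with such windows, and in 46.8% against 3.57% of single windows. The GAS-type motif TTCNNNGAA, a palindrome of the kind bound by STAT dimers, was present in 25.7% of member genes and 9.38% of all genes. Many members were chosen as interferon-induced genes, which ISREs are known to drive, so the ISRE share follows from the choice: 14 of the 16 effectors with a sequence had a match, and 4 of the 19 other members. A match is a run of letters and not a measured binding site. Matches are shown for IFIT5, the only promoter called between KO and WT for which a sequence was held, and for 5 others with a match: EIF2AK2 and IFI6, the most open in WT cells besides IFIT5 among members with a match, and IFITM3, IFI44 and ISG20, the least open. Sequences run 5′ to 3′ along the gene's strand, and capitals mark each ISRE-type match.
IFIT5 (chr10:89414318-89414617, plus strand): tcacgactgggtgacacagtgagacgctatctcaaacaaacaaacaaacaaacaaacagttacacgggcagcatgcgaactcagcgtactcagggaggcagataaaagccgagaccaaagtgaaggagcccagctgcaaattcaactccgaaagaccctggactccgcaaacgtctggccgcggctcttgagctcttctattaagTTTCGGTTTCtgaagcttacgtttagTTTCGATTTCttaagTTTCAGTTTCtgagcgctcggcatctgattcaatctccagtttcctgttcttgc
EIF2AK2 (chr2:37156931-37157230, minus strand): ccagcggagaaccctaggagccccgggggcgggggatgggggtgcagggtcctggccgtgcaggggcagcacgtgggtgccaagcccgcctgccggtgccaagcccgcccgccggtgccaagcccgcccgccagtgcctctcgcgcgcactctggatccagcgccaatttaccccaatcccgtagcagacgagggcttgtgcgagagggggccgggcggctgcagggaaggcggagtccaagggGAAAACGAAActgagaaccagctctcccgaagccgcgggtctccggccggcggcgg
IFITM3 (chr11:320811-321110, minus strand): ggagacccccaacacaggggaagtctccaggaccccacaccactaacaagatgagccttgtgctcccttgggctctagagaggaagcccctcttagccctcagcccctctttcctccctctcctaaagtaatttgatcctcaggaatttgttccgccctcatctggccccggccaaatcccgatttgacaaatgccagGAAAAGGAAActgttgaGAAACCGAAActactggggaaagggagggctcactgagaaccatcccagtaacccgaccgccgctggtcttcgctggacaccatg
IFI44 (chr1:78649539-78649838, plus strand): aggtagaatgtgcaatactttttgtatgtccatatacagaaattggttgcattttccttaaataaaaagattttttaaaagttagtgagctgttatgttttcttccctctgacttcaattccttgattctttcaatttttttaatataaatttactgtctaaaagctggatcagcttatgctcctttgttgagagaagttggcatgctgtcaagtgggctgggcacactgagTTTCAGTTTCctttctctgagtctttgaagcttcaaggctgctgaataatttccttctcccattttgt
IFI6 (chr1:27672143-27672442, minus strand): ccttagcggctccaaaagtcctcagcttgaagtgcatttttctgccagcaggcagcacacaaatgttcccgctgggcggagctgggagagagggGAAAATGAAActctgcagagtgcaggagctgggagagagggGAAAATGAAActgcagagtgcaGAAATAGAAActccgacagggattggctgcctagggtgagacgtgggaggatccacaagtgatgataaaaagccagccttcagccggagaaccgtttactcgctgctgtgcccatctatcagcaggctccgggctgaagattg
ISG20 (chr15:88638766-88639065, plus strand): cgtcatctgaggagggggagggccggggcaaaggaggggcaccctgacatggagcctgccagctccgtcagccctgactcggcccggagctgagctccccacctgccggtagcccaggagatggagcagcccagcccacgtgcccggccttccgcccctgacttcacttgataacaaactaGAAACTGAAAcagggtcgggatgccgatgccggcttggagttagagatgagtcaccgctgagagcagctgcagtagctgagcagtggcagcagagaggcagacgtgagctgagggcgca
In IFIT5 the 3 matches began 45, 19 and 4 bases before the start, and in IFI6 they began 156, 115 and 93 bases before it. The single match of EIF2AK2 began 6 bases before the start, that of IFI44 18 bases and that of ISG20 69 bases before it, and those of IFITM3 began 52 and 35 bases before it. The IFI44 window held 0 CpG dinucleotides and the EIF2AK2 window 30.

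The 18 member genes with a match had a median of 8.50 CpG dinucleotides per window and a median WT accessibility of 9.03 CPM. The 17 without had medians of 22.3 CpG and 27.1 CPM, a split that is largely that between effectors and the other roles. Across the 35 genes, CpG content and WT accessibility had a Spearman correlation of 0.72, and across all 19083 tested genes with a sequence it was 0.62, so that the members followed the relation of promoters at large. This is a description across genes, which share the same WT libraries and their base composition bias. RSAD2, with 24.5 CpG and 15.6 CPM, and TREX1, with 3 CpG and 22.0 CPM, lay off it in opposite directions.

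**Figure D2:**
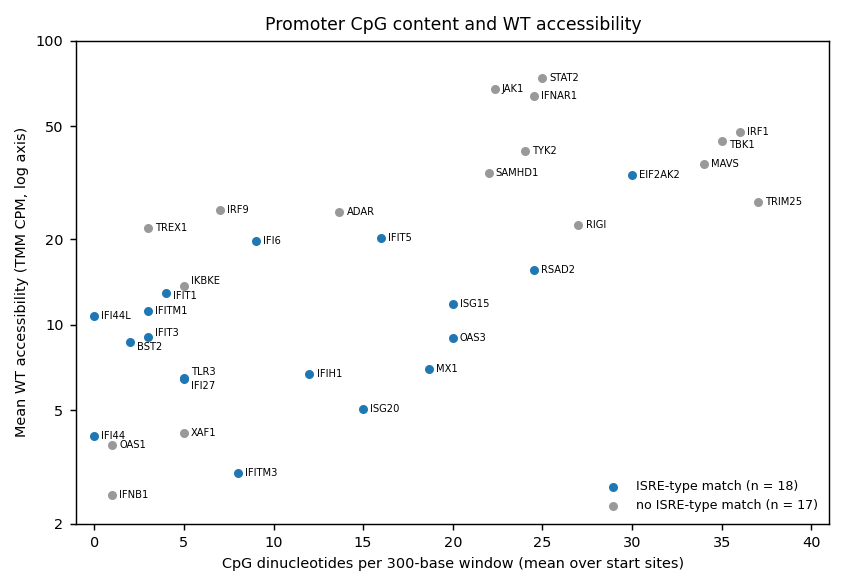
CpG dinucleotides per 300-base RefSeq promoter window (mean over start sites) against mean WT accessibility in CPM on a log axis, for the 35 member genes with a sequence; blue points have an ISRE-type match (n = 18) and grey points have none (n = 17). Blue points lie mostly towards few CpG and low accessibility, with EIF2AK2 the most open of them.

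Few of these promoters differed between the libraries labelled MORC2 KO and WT. In edgeR's quasi-likelihood test, with p adjusted by Benjamini-Hochberg over all 27647 promoters tested, 3 of the 48 members (6.25%) were called at an adjusted p under 0.05, against 4.45% of all promoters. IFNAR2 and IFIT5 were higher (3.45% of all promoters were) and OASL was lower (0.995% of all were) in KO. With only 48 members, a share of 6.25% is close to the background of 4.45%. At an unadjusted p under 0.05 there were 10 members, 5 higher and 5 lower (20.8%, against 20.3% of all). The median log2 fold change over the members was 0.028, and −0.017 over all tested promoters. The groups did not overlap at 27 members, against 50.6% of all promoters: the KO pair was above the WT pair at 16 (33.3%, against 25.2% of all) and below it at 11 (22.9%, against 25.4%).

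In the edgeR fit reported above, the 95% interval of the log2 fold change lay within −1 and 1 for 47 of the 48 members. That is within a 2-fold change in either direction. The interval lay within −0.5 and 0.5 for 32 of them. The upper end stayed below 1 at all 48 members and was highest for IFITM3, at 0.89, which held 25 to 71 fragments per library. The lower end passed −1 at IFNB1 alone, at −1.03. These bounds depend on the fit, also with all 4 libraries. At TLR3 the upper end was 1.041 under total count scaling and 1.038 in the DESeq2 Wald test. In the Wald test the lower end passed −1 at IFI44 (−1.27), IFNB1 (−1.36), OAS1 (−1.19), OAS2 (−1.24) and OASL (−1.08). With a single library left out, among the 24 named members, the upper end reached 1.09 at TLR3 (without WT replicate 1), and the lower end passed −1 at IFI44, IFNB1, OAS1, OAS2 and OASL, down to −1.46 at IFNB1 (without KO replicate 1). The study's methods call the WT replicates independent without saying whether they were separate cultures, so p-values measure the spread between these libraries.

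**Figure D3:**
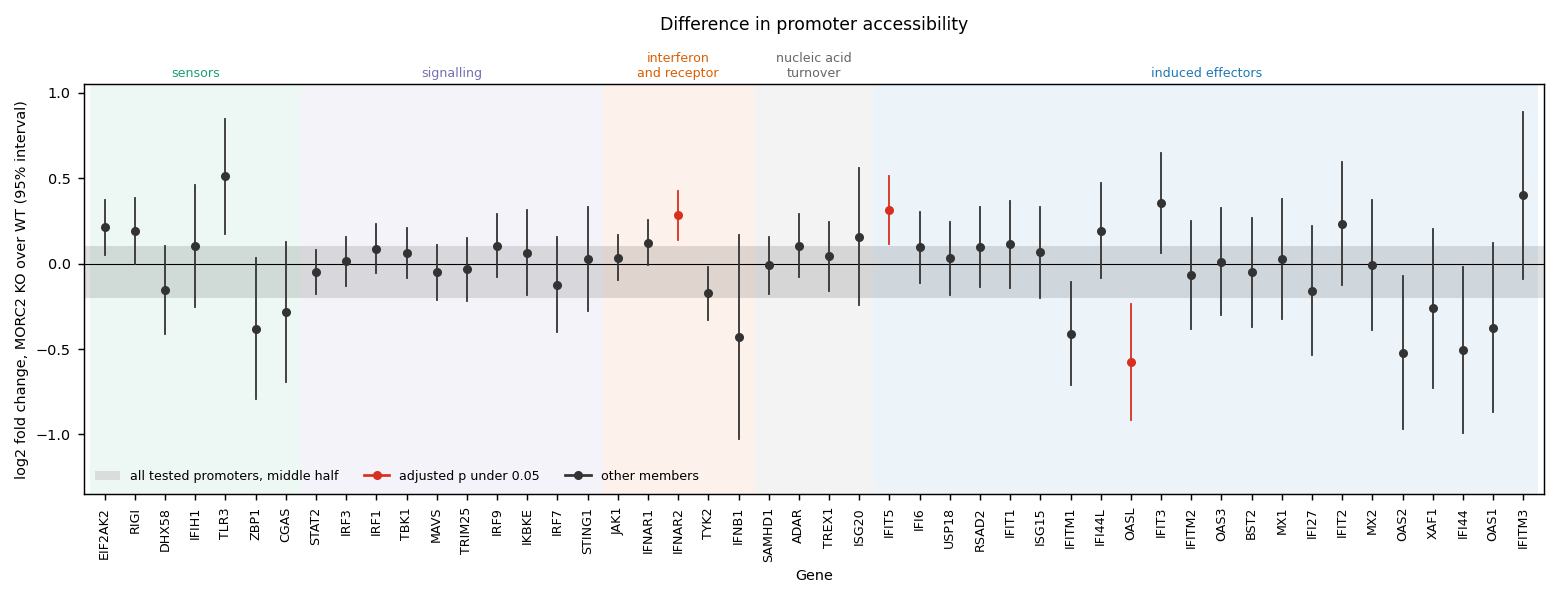
The log2 fold change of promoter accessibility, MORC2 KO over WT, with its 95% interval for the 48 genes in the order of the plot of levels; red marks an adjusted p under 0.05, and the grey band runs between the quartiles of all tested promoters, from −0.20 to 0.10. IFNAR2 and IFIT5 lie above 0 and OASL below it; no interval reaches 1, and IFNB1 alone passes −1.

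Among the 7 sensors none was called, with 2 at an unadjusted p under 0.05 (edgeR). TLR3, the endosomal receptor of double-stranded RNA, had the largest positive value of all members. Its promoter held 9.54 and 9.15 CPM in KO replicates 1 and 2, and 7.17 and 5.87 CPM in WT replicates 1 and 2. Both KO libraries were above both WT libraries. In edgeR the difference of 0.51 on the log2 scale (SE 0.17) had an adjusted p of 0.0592, just outside the threshold. Without WT replicate 1 it passed, at 0.66 and an adjusted p of 0.0442, and with loess offsets, which level the median difference across abundance, it passed at 0.62 (adjusted p 0.0261). Without WT replicate 2 it was 0.38 (adjusted p 0.392).

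EIF2AK2 encodes PKR, the kinase that halts translation on double-stranded RNA. It held 37.2 and 40.1 CPM in KO replicates 1 and 2, and 34.7 and 32.5 CPM in WT. The groups did not overlap, and the log2 fold change of 0.21 (SE 0.082) had an edgeR adjusted p of 0.110. Its row differed by under 25% in each library from those of GPATCH11 and SULT6B1, with log2 fold changes of 0.081 and 0.23. Window positions were not compared, so rows this close may share fragments or only have like counts. RIGI held 24.03 and 26.8 CPM in KO and 23.3 and 21.6 CPM in WT, a difference of 0.19 on the log2 scale (SE 0.099, edgeR adjusted p 0.252). Its KO libraries were both above its WT libraries, by little in KO replicate 1, and without KO replicate 2 the value was 0.10 (adjusted p 0.824). The promoter of IFIH1, whose product MDA5 binds long double-stranded RNA, showed overlapping groups, with 6.88 and 7.51 CPM in KO and 7.06 and 6.42 CPM in WT. Its log2 fold change was 0.10 (SE 0.18, edgeR adjusted p 0.786), and its row held nearly the same counts as that of GCA.

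The other sensors had negative values. CGAS, the DNA sensor, held 4.40 and 4.69 CPM in KO and 5.40 and 5.76 CPM in WT. Both KO libraries were below, but the log2 fold change of −0.28 (SE 0.21) had an edgeR adjusted p of 0.445. The row had counts close to those of DDX43. ZBP1, a sensor of Z-form nucleic acid, held 3.94 and 4.57 CPM in KO and 5.92 and 5.32 CPM in WT. At DHX58, which modulates MDA5 and RIG-I, the values were 13.5 and 11.7 CPM in KO and 13.6 and 14.2 CPM in WT. Neither was called, and both had KO libraries below the WT libraries.

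Of the 10 signalling promoters none was called and none had an unadjusted p under 0.05 in edgeR. In that fit the 95% interval lay within −0.5 and 0.5 for all 10. Their log2 fold changes ran from −0.12 at IRF7 to 0.11 at IRF9, and the groups did not overlap at 2 of the 10 (50.6% of all promoters). MAVS, the mitochondrial adaptor of RIG-I and MDA5, held 35.6 and 35.4 CPM in KO and 36.5 and 37.0 CPM in WT (log2 fold change −0.050, SE 0.082, edgeR adjusted p 0.763). Its row had counts close to those of AP5S1. IRF7, the factor that amplifies interferon production, held 10.7 and 10.6 CPM in KO and 12.5 and 10.6 CPM in WT (−0.12, SE 0.14, edgeR adjusted p 0.658). The IRF7 row had counts close to those of CDHR5. STING1 varied as much within groups as between them, with 11.4 and 8.62 CPM in KO and 11.2 and 7.86 CPM in WT, and its log2 fold change was 0.026 (SE 0.15, edgeR adjusted p 0.945). At MAVS and IRF7 the sign turned positive under total count scaling, to 0.085 and 0.018, and at STING1 it turned negative when only promoters with a mean count of at least 50 were kept, at −0.0097, without KO replicate 1, at −0.13, and without WT replicate 2, at −0.20. Without WT replicate 1 the STING1 value was 0.31, with an upper interval end of 0.70, and without KO replicate 2 it was 0.25. With all 4 libraries the STING1 upper end was 0.54 under total count scaling and 0.56 in the DESeq2 Wald test. The bound of STING1 thus depends on single libraries and on the fit. The IRF7 lower end was −0.55 in the Wald test. IRF3, STAT2, TBK1, IRF1, IKBKE, IRF9 and TRIM25, the ubiquitin ligase of RIG-I, had intervals within −0.5 and 0.5 in the reported fit.

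Of the 5 genes of interferon beta, its receptor and the receptor's kinases, 1 was called (20.0%, against 4.45% of all promoters). Among nuclear promoters of like abundance to IFNAR2, class 9 of 10 from the bottom, 8.62% were called. IFNAR2, the high-affinity receptor chain (Gene ID 3455), gathered 544 fragments in KO replicate 1, 913 in KO replicate 2, 422 in WT replicate 1 and 376 in WT replicate 2. After scaling, KO stood at 51.7 ± 2.58 CPM and WT at 42.7 ± 1.54 CPM (SD, n = 2 each), with no overlap. The 1.22-fold difference, 0.28 on the log2 scale (SE 0.074), had an edgeR adjusted p of 0.0102. IFNAR2-IL10RB, a readthrough gene with the same start, had identical counts. IL10RB-DT and IL10RB, with counts close to each other's, had 0.21 and 0.19 (adjusted p 0.135 and 0.157), and IFNAR1 had 0.12 (SE 0.067, adjusted p 0.290). The median of the 20 tested promoters on each side of IFNAR2 was 0.073. The IFNAR2 call was lost without KO replicate 2 (0.23, adjusted p 0.351), without WT replicate 2 (0.25, adjusted p 0.138), with offsets on abundance (0.22, adjusted p 0.115) and in the DESeq2 Wald test (0.28, adjusted p 0.746).

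TYK2, a kinase on IFNAR1, was not called, with 36.4 and 36.3 CPM in KO and 38.3 and 43.9 CPM in WT. Its log2 fold change of −0.17 (SE 0.079) had an edgeR adjusted p of 0.186, and WT replicate 2 lay apart from the other 3 libraries, so that without it the value was −0.076. JAK1 was level, at 69.5 and 69.2 CPM in KO and 67.7 CPM in each WT library. Its row had counts close to those of RAVER2. At IFNB1, the gene that the sensors switch on, there were 26 fragments in each KO library and 26 and 21 in WT replicates 1 and 2, that is, 2.38 and 1.52 CPM in KO and 2.70 and 2.33 CPM in WT. The groups overlapped, and a difference was not detectable at this depth (log2 fold change −0.43, SE 0.31, edgeR adjusted p 0.428). Without KO replicate 2 the IFNB1 value was −0.072 and without KO replicate 1 it was −0.70.

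The 4 genes that edit or degrade nucleic acids had log2 fold changes from −0.011 to 0.16, and none was called or had an unadjusted p under 0.05 in edgeR. ADAR, which edits adenosine in double-stranded RNA and so hides it from MDA5, held 28.2 and 26.0 CPM in KO and 24.8 and 25.3 CPM in WT. TREX1, a DNA exonuclease, held 22.7 and 22.6 CPM in KO and 22.6 and 21.3 CPM in WT, with counts close to those of SHISA5. SAMHD1, which depletes nucleotides, held 34.8 and 33.4 CPM in KO and 33.1 and 35.3 CPM in WT, with counts close to those of RBL1. The KO libraries lay above the WT libraries at ADAR and at ISG20, an exonuclease with 5.69 and 5.57 CPM in KO and 4.78 and 5.32 CPM in WT, and overlapped them at the other two.

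Of the 22 effectors, 1 was called higher and 1 lower, with a median log2 fold change of 0.018. This is 9.09% of the group called, against 4.45% of all promoters. Among nuclear promoters of like abundance, 2.64% were called in the class of IFIT5 and 1.81% in that of OASL. With only 22 effectors, the share called rests on few promoters. The IFIT genes, neighbours in one cluster whose products bind viral RNA, had positive values at all 4 members (46.7% of all promoters were positive), and 1 of them was called. Differences between families were not tested. IFIT5 (Gene ID 24138) gathered 284 fragments in KO replicate 1, 418 in KO replicate 2, 207 in WT replicate 1 and 171 in WT replicate 2. Scaled, KO stood at 25.3 ± 1.09 CPM and WT at 20.2 ± 1.81 CPM (SD, n = 2 each), without overlap. Its log2 fold change of 0.31 (SE 0.10, 1.24-fold) had an edgeR adjusted p of 0.0488, close to the threshold. The call was kept in 4 of 15 fits, the reported one included. It was lost without KO replicate 1 (0.29, adjusted p 0.168), without KO replicate 2 (0.37, adjusted p 0.233) and without WT replicate 2 (0.23, adjusted p 0.378), with loess plus neighbourhood offsets (0.18, adjusted p 0.647), and in the robust fit, where the adjusted p was 0.0528.

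IFIT3 held 11.005 and 12.1 CPM in KO and 9.35 and 8.86 CPM in WT (0.36 on the log2 scale, SE 0.15, edgeR adjusted p 0.146). IFIT2 held 7.25 and 7.68 CPM in KO and 6.65 and 6.09 CPM in WT. Both had KO libraries above WT libraries. IFIT1 did not, with 13.7 and 14.4 CPM in KO and 14.02 and 11.96 CPM in WT (0.11, SE 0.13, edgeR adjusted p 0.651), and its value was 0.0067 without WT replicate 2 and 0.24 without WT replicate 1. The median log2 fold change of the promoters around the cluster was 0.083 at IFIT1, IFIT3 and IFIT5 and 0.10 at IFIT2.

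The OAS genes, whose products make the oligoadenylate that activates RNase L, had negative values at 3 of 4 members. Of the 4, 1 was called (4.45% of all promoters were). All 4 lay below the median WT level, where 24.6% of nuclear promoters had positive values (46.7% of all promoters did). OASL (Gene ID 8638), an OAS-like protein without that activity, gathered 75 fragments in KO replicate 1, 96 in KO replicate 2, 94 in WT replicate 1 and 77 in WT replicate 2, so that the counts overlap while the scaled values do not. Scaled, KO stood at 6.25 ± 0.883 CPM and WT at 9.14 ± 0.872 CPM (SD, n = 2 each). The difference of −0.58 on the log2 scale (SE 0.17) had an edgeR adjusted p of 0.0308. Promoters of like abundance, the fourth of 10 classes from the bottom, had a median of −0.18. The OASL call was lost without KO replicate 2 (−0.41, adjusted p 0.496), without WT replicate 1 (−0.47, adjusted p 0.186), without WT replicate 2 (−0.67, adjusted p 0.0787), with offsets on abundance (−0.46, adjusted p 0.164) and in the DESeq2 Wald test (−0.56, adjusted p 0.935).

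OAS2 held 3.21 and 3.58 CPM in KO and 5.61 and 4.21 CPM in WT (log2 fold change −0.52, SE 0.23, edgeR adjusted p 0.167), and without WT replicate 1 the value was −0.29. OAS1 held 2.48 and 3.17 CPM in KO and 3.32 and 4.21 CPM in WT (−0.38, SE 0.25, edgeR adjusted p 0.398), and its value was −0.20 without WT replicate 2, −0.23 without KO replicate 1 and −0.59 without KO replicate 2. At both the KO libraries lay below the WT libraries, and their abundance class, the third from the bottom, had a median of −0.24. OAS3, the neighbour of both, was level, at 9.08 and 8.97 CPM in KO and 8.62 and 9.30 CPM in WT.

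The IFITM genes, which block virus entry and are near-identical in sequence, so that reads may be split or lost between them, gave no call. IFITM1 held 8.90 and 8.09 CPM in KO and 12.2 and 10.2 CPM in WT, without overlap (−0.41, SE 0.15, edgeR adjusted p 0.0967). IFITM3 held 3.67 and 4.16 CPM in KO and 2.60 and 3.43 CPM in WT. IFITM2, with counts close to those of IFITM5, held 9.17 and 8.21 CPM in KO and 8.83 and 9.19 CPM in WT. Nor did the adjacent genes IFI44 and IFI44L. IFI44 held 2.84 and 2.87 CPM in KO and 3.84 and 4.32 CPM in WT (−0.51, SE 0.25, edgeR adjusted p 0.221), and IFI44L held 12.7 and 11.9 CPM in KO and 10.6 and 10.9 CPM in WT (0.19, SE 0.14, edgeR adjusted p 0.445).

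The effectors most used as markers of an interferon response showed no call. ISG15 held 12.4 and 12.5 CPM in KO and 12.4 and 11.4 CPM in WT (log2 fold change 0.065, SE 0.14, edgeR adjusted p 0.823). RSAD2 held 16.0 and 17.2 CPM in KO and 15.7 and 15.5 CPM in WT (0.096, SE 0.12, edgeR adjusted p 0.677). Its row had counts close to those of CMPK2. MX1 was uneven between the WT libraries, with 8.83 and 5.21 CPM, against 7.34 and 7.09 CPM in KO (0.026, SE 0.18, edgeR adjusted p 0.953), and its value was −0.29 without WT replicate 2 and 0.47 without WT replicate 1. IFI27 held 5.87 and 5.69 CPM in KO and 6.44 and 6.42 CPM in WT (−0.16, SE 0.19, edgeR adjusted p 0.673), and with offsets on abundance its sign turned, at 0.0045. The KO and WT libraries overlapped at MX2, IFI6, USP18, BST2, which tethers budding virus, and XAF1, an apoptosis factor. The rows of MX2 and BST2 had counts close to those of FAM3B and BISPR. Over the 24 members outside the rule for named genes, IFNAR1 and IFIT2 among them, log2 fold changes ran from −0.38 to 0.40 and the lowest adjusted p was 0.288.

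The differences followed promoter abundance, and the members were set against that trend. Over all nuclear promoters below the median WT level the median log2 fold change was −0.18, and above it 0.062. The 19 members above that level had a median of 0.061. The 29 members below it had a median of −0.0094, and 48.3% of them were above 0, compared with 24.6% of all promoters below the median level. These members were more open than those promoters as a whole, with a median at the 37.2th percentile against the 25.0th. In the class of abundance that held most members, the fifth of 10, the 14 members had a median of 0.045 against −0.032 for all 2761 promoters. In the fourth class the 9 members had −0.0094 against −0.18, and in the third the 5 members had −0.38 against −0.24.

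**Figure D4:**
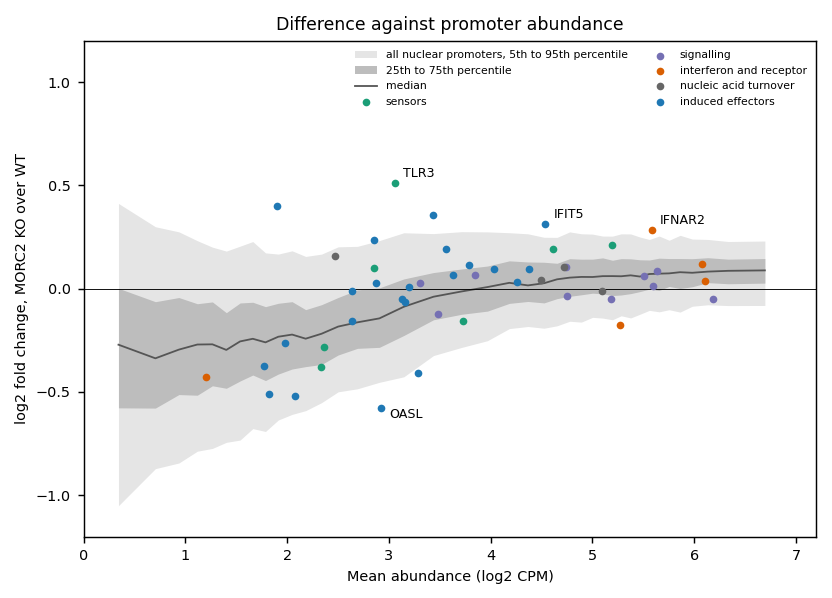
The log2 fold change, MORC2 KO over WT, against mean abundance in log2 CPM for the 48 genes, coloured by role, over the median and the percentile bands of all nuclear promoters in 40 bins of abundance. The background falls from about 0.08 in the most open promoters to −0.29 in the least open class of 10. Most members lie within the bands. TLR3 lies farthest above them, with IFIT2, IFIT3, IFIT5, IFITM3 and IFNAR2 also above, and IFITM1, OASL and TYK2 lie below.

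A further 74 genes of the pathway, listed by role, were also examined: 3 were called (4.05%, against 4.45% of all promoters), all of them higher in KO. They were TRAF6, a ubiquitin ligase of Toll-like receptor signalling, PLSCR1, an interferon-induced scramblase, and HERC6, of a family of ligases that includes the one for ISG15. TRAF6 held 40.4 and 47.2 CPM in KO and 35.2 and 36.2 CPM in WT (log2 fold change 0.31, SE 0.079, edgeR adjusted p 0.00722). Its row had counts close to those of RAG1. PLSCR1 had 0.30 (adjusted p 0.00810) and HERC6 0.30 (adjusted p 0.0279) in the same test, each without overlap between the groups. At an unadjusted p under 0.05 there were 20 (27.0%, against 20.3% of all promoters), 11 higher and 9 lower, and the median of the 74 was 0.056. Without KO replicate 2 the count of calls was 0 (12 at an unadjusted p under 0.05 in edgeR), without WT replicate 2 it was 1, and without KO replicate 1 it was 6.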

How the data were processed

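ATAC-seq was measured in 4 HEK293T libraries, 2 MORC2 KO and 2 WT. The authors used Trim Galore for trimming and bowtie2 for alignment to the CHM13 assembly, kept properly paired, well-mapped reads and removed duplicates with Picard. The deposited table holds raw fragment counts per promoter and NCBI Gene ID. The study's methods define promoters as windows of 2 kb around start sites; the submitters' processing notes name Subread 2.0.6 and featureCounts without a role, and the study's own accessibility tests counted fragment midpoints in short csaw windows, summarised per promoter. Which of these made the deposited table is not given in the sources used here. At the same false discovery rate, the study's tests reported far fewer differentially accessible genes between KO and WT than were called here. Multi-mapping fragments are lost by the mapping filter, which lowers counts at near-identical genes. The WT peak list was not used here, as its positions are on CHM13 and gene positions at hand are on GRCh38.p14.

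Gene IDs were matched to RefSeq symbols (28763 of 28775 rows; all 48 members). Rows were filtered with filterByExpr (27647 kept) and scaled by TMM, and the difference between KO and WT was tested with edgeR 4.0.16 in R 4.3.3 (quasi-likelihood F-test, legacy fit, no covariates; two-sided), with Benjamini-Hochberg adjustment over all rows and a threshold of 0.05. Standard errors were derived from the F statistics, and 95% intervals from the t distribution (from normal quantiles in all other fits). The common dispersion was 0.00180. Single values of 2 against 2 libraries were not tested, as an exact permutation test cannot give a two-sided p below 0.333. Counts were taken as close where they differed by under 25% in every library from those of a neighbour in gene order. This held for 15 members. Positions were not compared, so such rows need not share fragments. Neighbourhood medians are over 20 tested rows on each side.

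The members and lists were chosen with earlier results of these data known. Fold changes are given for each called member, for 14 preset ones and for those with the smallest p up to 24, and of the pathway list for called genes; the value of IFNAR1 was added after it was seen, as the neighbour of IFNAR2. Alternatives covered scaling (size factors of DESeq2 1.42.0, total count, loess offsets on abundance, loess plus neighbourhood offsets), filters, a robust fit, omission of 37 mitochondrial rows, the DESeq2 Wald test, a replicate block, the threshold, leaving out each library, each WT library alone for levels, and the letters of the motif. The fit was tested on simulated counts. Some cell type marker promoters are not reported here.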

Additional observations from a re-analysis of the deposited data

How the results depend on the processing

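Over all promoters, 1229 calls (954 higher, 77.6%) stayed within 1.5 times with DESeq2 size factors, no filter, the robust fit and without mitochondrial rows. There were 20 with total count scaling (19 higher), 394 with loess offsets (217 higher, 55.1%), 99 with loess plus neighbourhood offsets (69.7% higher), 787 among promoters with mean counts from 50 up (66.1% higher), 7 in the DESeq2 Wald test (all higher), 2249 at an adjusted p under 0.1, and from 41 to 1637 on leaving out single libraries, the fewest without KO replicate 2 (90.2% higher). Without WT replicate 2 there were 230 (60.9% higher). The count of members called, 3, fell to 0 under total count scaling (7 with an unadjusted p under 0.05), 0 with loess plus neighbourhood offsets (5) and 0 in the DESeq2 Wald test (4), 1 with loess offsets, which was TLR3, 5 at an adjusted p under 0.1, and 0 to 3 on leaving out single libraries. It was 0 without KO replicate 2 and without WT replicate 2 (5 at an unadjusted p under 0.05 in each). The count in the pathway list, 3, fell to 0 under total count scaling (11 with an unadjusted p under 0.05), 0 with either loess offset (7 in each) and 0 in the DESeq2 Wald test (4), 8 at an adjusted p under 0.1, and 0 to 6 on leaving out single libraries. For none of these was the cause tested.

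The median of the members, 0.028, was 0.17 with total count scaling, which moves the median of all promoters to 0.12, 0.057 with loess plus neighbourhood offsets, 0.0030 among promoters with mean counts from 50 up, where 42 members were tested, and 0.0086 to 0.095 on leaving out single libraries. The sign turned at IFI27 with loess offsets (0.0045) and loess plus neighbourhood offsets (0.024), at IRF7 with total count scaling (0.018) and loess plus neighbourhood offsets (0.017), at MAVS with total count scaling (0.085), and at MX1 (−0.0089) and STING1 (−0.0097) among promoters with mean counts from 50 up. With each library left out, MX1 ran from −0.29 to 0.47 and STING1 from −0.20 to 0.31. Across the 24 named members and all alternatives with 4 libraries, 211 values kept sign and call, 16 lost the call, 2 gained it and 7 changed sign. IFNAR2 was called in 9, OASL in 8, IFIT5 in 4 and TLR3 in 3 of 15 fits. The members' median WT percentile was 45.6 and 44.3 in WT replicates 1 and 2 alone. The members' ISRE share was 42.9% with a C required after the motif (0.952% of all genes) and 51.4% with its last A dropped (9.86%). The share over all genes, 4.38% with the motif as searched, thus depended strongly on the letters.

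A replicate block in the model gave 765 calls over all promoters, 553 of them higher, and again 3 members: IFIT5 lost its call (adjusted p 0.0594) and TLR3 gained one (0.52, adjusted p 0.0496). Libraries with the same number did not deviate together (correlation 0.00026 over promoters), and no label ties them, so they share only a number.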

Other observations

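ISRE-type motifs are not limited to the genes chosen. Of all 19083 tested genes with a RefSeq promoter sequence, 779 had a match to this motif. Among these 28 were called between KO and WT in edgeR (3.59%), 21 higher and 7 lower, against 5.16% of all genes with a sequence. Their median log2 fold change was −0.015, and 0.00028 over all genes with a sequence. The genes with a match were less open, with a median WT level of 11.3 CPM against 23.2 CPM, and their windows held a median of 11 CpG against 20. The search was made after the members' values were seen, and the part of abundance in these shares was not tested.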
